A study of Drosophila melanogaster with 4 samples.

Results

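Histone H3 trimethylated at lysine 4 (H3K4me3) was mapped by chromatin immunoprecipitation with sequencing (ChIP-seq) in whole larvae of the 3rd larval instar of Drosophila melanogaster, from the wild-type strain Oregon-R-modENCODE with no treatment or transgene named. The regions described here are those 2000 to 5000 bp wide, called mid-width, with a gap of 2000 bp or less to at least 1 neighbouring region of any width. They were chosen from the authors' combined list of enriched regions, on the 5 large arms, which are X, 2L, 2R, 3L and 3R. By this rule 1050 regions were closely spaced, out of 2983 mid-width regions and 4314 regions on these arms, and 4451 regions in the whole list. Width and gap in the combined list chose the members, so their widths and nearest gaps are given as a description.

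There were 2 ChIP and 2 input libraries by the labels, and lot 2 of a polyclonal rabbit antibody was used. The authors deposited 1 list of regions for each ChIP library and the combined list, and input files were not used here. Positions are on FlyBase release 5. Depth is unknown, and each region carries only the authors' score, which has no stated scale and is used within a list. The labels do not tell whether the replicates are separate cultures, so SDs may be technical. Values below are for the combined list, with the mean and SD over the 2 replicate lists where the same rule was applied to them. With 2 libraries the smallest two-sided p of an exact permutation test is 0.333 for 2 unpaired values against 2. Members and the other mid-width regions come from the same lists, a pairing which that p leaves out. SDs given for each side do not measure the spread of their difference. Regions of 1 library are not replicates either, and no difference below was tested.

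In Drosophila the bulk of H3K4me3 is known to be laid down by the methyltransferase Set1 in its COMPASS complex, on the nucleosomes just downstream of transcription starts of active genes. The mark is read by proteins with PHD fingers, among them a subunit of the nucleosome remodeller NURF. The fly genome is compact, and neighbouring promoters, divergent promoters and alternative promoters of 1 gene can lie within a few nucleosomes to a few kilobases of each other. Whole larvae hold many tissues, so marks in the same cells and marks in different cells cannot be told apart. The gene table at hand is on Release 6 of the genome, so no gene is assigned to a region and no sequence is shown.

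The closely spaced share of mid-width regions was nearly equal in the 3 lists. It was 35.2% in the combined list (1050 of 2983), 36.2% in replicate 1 (1129 of 3115) and 35.3% in replicate 2 (1064 of 3017), or 35.8% ± 0.691 over the replicate lists (SD, n = 2). The background is nearly the same: 35.0% of regions of any width had a gap of 2000 bp or less to a neighbour. Mid-width regions were thus not closely spaced more often than regions at large. The 1050 closely spaced regions covered 3.34 Mb, which is 21.2% of all bases covered by regions on the 5 arms.

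The gaps had no break at the limit of the rule. Of 4309 gaps between neighbours, 844 (19.6%) were at most 2000 bp long. In bins of 500 bp the combined list held 259, 191, 212 and 182 gaps up to the limit, and 162 and 142 in the next bins. Within the limit replicate 1 held 270, 213, 175 and 187 gaps and replicate 2 held 238, 195, 193 and 174. Closely spaced regions are thus the near end of a continuous range of spacings.

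**Figure D1:**
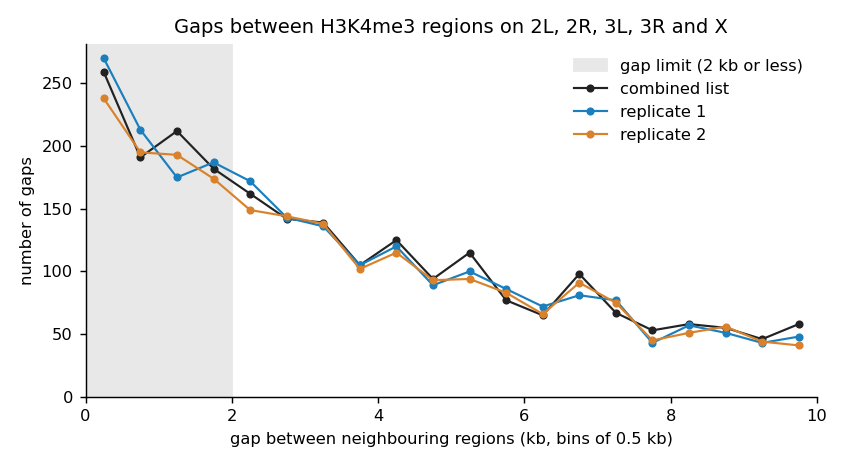
Number of gaps between neighbouring H3K4me3 regions on 2L, 2R, 3L, 3R and X against gap length in kb, in bins of 0.5 kb, for the combined list and both replicate lists; the grey band marks the 2 kb limit. Counts fall gradually, from 259 in the first bin of the combined list to 182 in the last bin within the limit and 162 in the first bin beyond it.

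Just inside the limit lay members on 3R from 3726850 to 3729328 with a gap of 1999 bp and on X from 6989720 to 6992992 with a gap of 1995 bp. Another, on 2L from 20824710 to 20826752, had a gap of 1991 bp. Just outside lay mid-width regions on 3L from 19246632 to 19250174 with 2001 bp, on 2R from 13467362 to 13469992 with 2005 bp and on X from 14724592 to 14728546 with 2005 bp. The 39 members with a gap of 1901 to 2000 bp had a median score of 2.04, and the 35 mid-width regions with a gap of 2001 to 2100 bp had 2.37. At the lower width limit, 12 members of 2000 to 2049 bp had a median score of 0.321, and 8 equally close regions of 1950 to 1999 bp had 0.284. At the upper limit, 35 members of 4801 to 5000 bp had a median score of 2.54, and 29 equally close regions of 5001 to 5200 bp had 2.38.

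Spacing within the limit covered the whole range down to touching regions. The nearest gap of a closely spaced region had a median of 827 bp, with the middle 50% between 361 and 1406 bp. In the replicate lists the median was 812 ± 5.30 bp (SD, n = 2). A gap of at most 500 bp was found for 335 members (31.9%), and one of at most 100 bp for 72 (6.86%). Other mid-width regions had a median nearest gap of 6833 bp. The far side of members is not set by the rule. For the 936 members with a close gap on 1 side and a measured gap on the other, the far gap had a median of 11411 bp, and in the replicate lists 11326 ± 77.4 bp (SD, n = 2). The gaps on both sides of the other mid-width regions, which all exceed 2000 bp as well, had a median of 13533 bp and of 13893 ± 421 bp (SD, n = 2).

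The smallest spacings belong to regions that nearly or just touched. On 3L the regions from 1294950 to 1297814 and from 1297814 to 1300176 overlapped by 1 bp, with scores of 2.29 and 1.17. Both replicates held them as single, narrower regions, of 2677 and 2328 bp in replicate 1 and of 2654 and 2311 bp in replicate 2. The next smallest gaps were 1 bp beside the region of 3R from 12816048 to 12818518, 5 bp beside that of X from 8982240 to 8985924 and 11 bp beside that of 3L from 12197640 to 12199996. Their scores were 1.93, 2.52 and 1.34, and each of them was a single region in both replicates. All starts and ends in the combined list are even numbers, whereas 50.4% and 48.3% of starts are even in replicates 1 and 2, so gaps in the combined list come in steps of 2 bp.

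Most closely spaced regions stood in a run of 2. A run is a chain of regions of any width joined by gaps of 2000 bp or less. The 1050 members lay in 609 runs, of which 479 held 2 regions, 97 held 3, 26 held 4 and 7 held 5. No run was longer in the combined list, and replicate 1 had 1 run of 6 regions. In all, 751 members stood in runs of 2 and 299 (28.5%) in runs of 3 or more. That share was 30.0% in replicate 1 and 27.6% in replicate 2, or 28.8% ± 1.69 (SD, n = 2). The median run spanned 8481 bp, and in the replicates 8472 and 8471 bp.

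A close neighbour on the high-coordinate side was about as common with as without one on the other side. Of the 573 mid-width regions with a close gap on the side of lower coordinates, 113 (19.7%) also had one on the other side. Of the 2410 without one, 477 (19.8%) did. In replicate 1 the shares were 20.5% and 20.3%, and in replicate 2 they were 18.7% and 19.6%. Further out, members had slightly more company: between 10 and 50 kb from their centre lay a mean of 4.04 regions, against 3.69 around the other mid-width regions. The replicate lists gave 3.94 ± 0.154 and 3.61 ± 0.0416 (SD, n = 2), a difference of the same direction in each list.

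The run of 5 regions on 3R from 1041496 to 1060042 was made of members alone. Its regions were 2593, 2861, 2763, 2713 and 4741 bp wide, with gaps of 267, 59, 865 and 1685 bp between them, and 84.5% of its 18547 bp lay in regions. Scores were 1.97, 2.44, 1.85, 2.41 and 3.02 in that order. They were 2.06, 2.64, 2.07, 2.58 and 3.28 in replicate 1 and 1.91, 2.37, 1.78, 2.31 and 3.02 in replicate 2. The region at the high-coordinate end was thus the widest and the highest-scoring in all 3 lists, and each list resolved 5 regions.

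The other runs of 5 mixed members with broad or narrow regions. The longest, on 3R from 11165436 to 11201596, spanned 36161 bp and held only 1 member, 3907 bp wide with a score of 1.60, 177 bp from a region of 9849 bp. Replicate 1 resolved 6 regions there and replicate 2 resolved 5, and neither held the last region of the run, which was 1411 bp wide with a score of 0.270. The run on 2R from 4973920 to 5006334 held members of 3029, 2385 and 3923 bp with scores of 2.24, 0.788 and 2.63, and ended in a region of 11531 bp. Both replicates resolved 5 regions in it. The run on X from 2590456 to 2615340 was bounded by members of 3887 and 3379 bp with scores of 2.81 and 2.39. Its narrow region in the middle, 1881 bp wide, was present in replicate 1 and absent from replicate 2. The run on 2R from 9106116 to 9127866 held members of 4011, 2801 and 2487 bp with scores of 2.54, 1.74 and 2.06. Its narrow region of 1507 bp, with a score of 0.134, was in neither replicate. The other 2 runs of 5 were shorter, on 2R from 3665434 to 3682696 with 4 members and 1 narrow region, and on 3R from 12811264 to 12824078 with 2 members and 3 narrow regions.

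**Figure D2:**
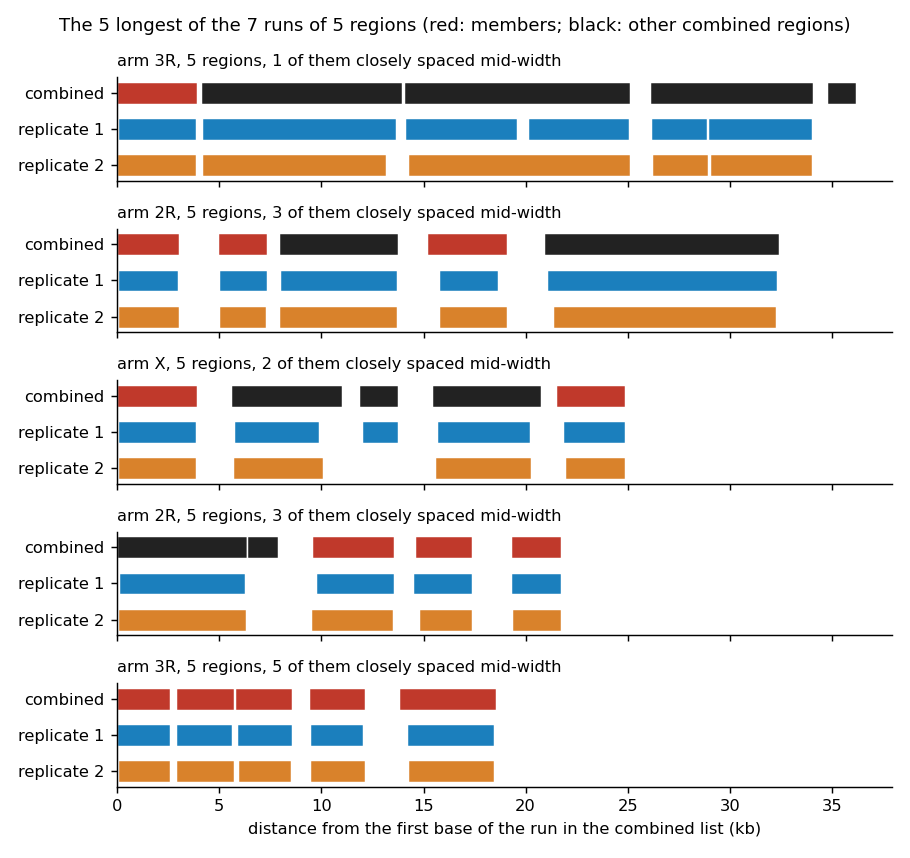
Maps of the 5 longest among the 7 runs of 5 regions, with distance in kb from the first base of the run on the horizontal axis and 1 row of bars for each list; red bars are closely spaced mid-width regions of the combined list and black bars its other regions. The bottom run, on 3R, has 5 members and 5 regions in each list, while the narrow bars at the end of the top run and beside the first bar of the fourth run have no counterpart in either replicate.

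The neighbours of closely spaced regions were mostly mid-width, as were most regions on these arms (2983 of 4314). Of the 747 close gaps beside a member, 416 (55.7%) separated regions that were both mid-width, 223 separated a member from a broad region over 5000 bp and 108 separated one from a narrow region under 2000 bp. In the replicate lists the share between mid-width regions was 61.3% ± 1.28 (SD, n = 2). Counted from the members, 71.5% of their close neighbours were mid-width, 9.29% narrow and 19.2% broad. The nearest neighbours of the other mid-width regions were mid-width in 69.9%, narrow in 13.8% and broad in 16.3%. The measures differ: all 1163 close neighbours on either side count for members, but only the single nearest for the others. In replicate 1 narrow neighbours made up 5.81% against 10.8%, and in replicate 2 they made up 6.22% against 11.1%. The median width of a close neighbour was 3109 bp, against 2881 bp for the nearest neighbour of the other regions, and 3191 ± 4.24 against 2881 ± 6.01 bp in the replicate lists (SD, n = 2).

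The centres of mid-width partners, that is mid-width regions separated by a close gap, lay a median of 4138 bp apart. The middle 50% of these distances were between 3565 and 4672 bp, and the median was 4118 ± 30.1 bp in the replicate lists (SD, n = 2). From the first to the last base such partners spanned a median of 7250 bp. At the other extreme, the widest close neighbours were 19191, 16837, 16235 and 16141 bp, all on 3R, and 15763 bp on X. The member beside the widest, on 3R from 19595988 to 19600704, was 183 bp away with a score of 2.30. The member beside the region of 16837 bp, on 3R from 5595782 to 5600714, had a score of 0.813 and was split in 2 in each replicate, the only member that was split in either list.

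Every member had a counterpart in replicate 2, and all but 1 had one in replicate 1, by an overlap of at least 1 bp. Of the 1050 members 1049 (99.9%) were found in both lists, as were 1931 of the 1933 other mid-width regions (99.9%), against 92.0% of regions of any width. The shares of members and others leave no room for a difference, and the combined list draws on both libraries. The exception was the region of X from 10732600 to 10734648, 2049 bp wide with a score of 0.433, found only in replicate 2, where it was 2079 bp wide with a score of 0.634. When 50% of each region had to be covered, 1045 members (99.5%) and 1931 others (99.9%) were found in both.

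Presence as a region does not say that the gap beside it was seen. A close gap was called open in a replicate when that list had separate regions on both sides, bridged when 1 region covered both sides and missing a side when either region had no counterpart. Of the 747 close gaps beside members, 674 (90.2%) were open in both replicates, against 88.3% of close gaps between regions of any width. Only 3 were bridged in replicate 1 and 1 in replicate 2. A side was missing for 46 gaps in replicate 1 and for 58 in replicate 2, 35 of them the same gaps.

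The kind of partner separated gaps that were seen in both replicates from gaps that were not. Between mid-width partners 414 of 416 gaps (99.5%) were open in both, and beside broad partners 220 of 223 (98.7%). Beside narrow partners only 40 of 108 (37.0%) were open in both. There a side was missing for 45 gaps in replicate 1 and 58 in replicate 2, and none of these gaps was bridged in either. The regions without a counterpart in replicate 1 were 43 in number, 1 of them a member, with median width 1287 bp and median score 0.204. In replicate 2 they were 53, none a member, with 1321 bp and 0.208. The 102 narrow close neighbours of members were found in both lists in 38.2% of cases. The other 496 narrow regions of these arms were found in both in 44.0%.

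**Figure D3:**
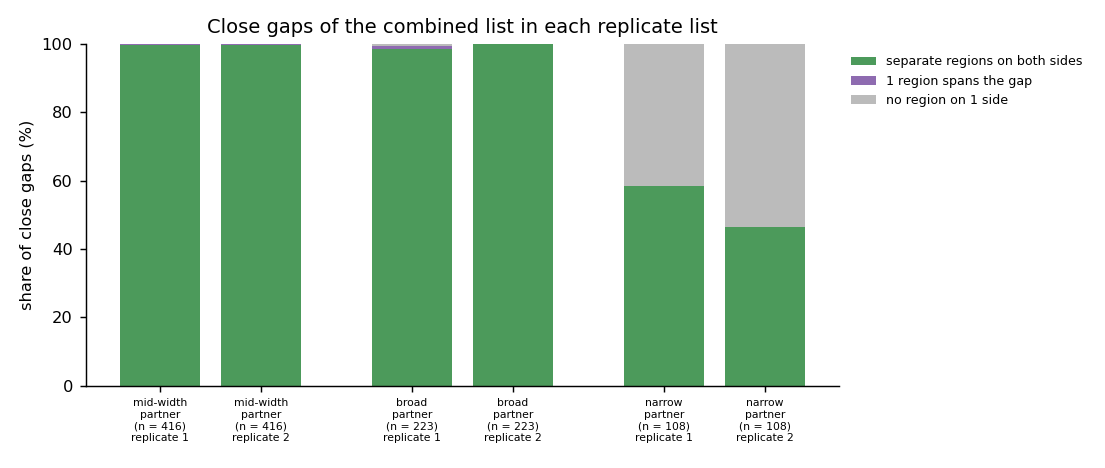
Share in percent of the close gaps of the combined list, by the partner of the member and by replicate list, in which the list had separate regions on both sides (green), 1 region across the gap (purple) or no region on 1 side (grey). Gaps beside mid-width and broad partners are green almost throughout, whereas beside narrow partners 45 of 108 gaps in replicate 1 and 58 of 108 in replicate 2 lack a side.

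Even the shortest gaps kept in the combined list were mostly open in both replicates where the partner was not narrow. Of 41 such gaps of at most 100 bp, 39 (95.1%) were open in both, and of 149 gaps of 101 to 500 bp, 147 were (98.7%). Short gaps of a replicate that were bridged in the combined list are not counted among these. Gaps were longer in the replicates than in the combined list. Over the 674 gaps open in both, the combined list had a median of 939 bp, and replicates 1 and 2 had 1089 and 1079 bp. The replicates differed from each other by a median of 76 bp per gap. In replicate 1, 48 open gaps exceeded 2000 bp, and in replicate 2, 36 did. Of these, 43 and 32 were gaps of over 1500 bp in the combined list. The gaps were chosen by their length in the combined list, so they could pass the limit only in the replicates. How far this choice adds to the longer gaps there was not tested.

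Applied to the replicates, the rule chose largely overlapping regions. Of the members with a counterpart in replicate 1, 950 of 1049 (90.6%) overlapped a region that was closely spaced and mid-width there, and 943 of 1050 (89.8%) did so in replicate 2. Of all members 895 (85.2%) did so in both. Among the other mid-width regions 4 of 1932 did so in replicate 1 and 4 of 1931 in replicate 2. In the reverse direction some close gaps of the replicates were lost on combination. The list of replicate 1 had 775 close gaps beside its own closely spaced mid-width regions, of which 102 (13.2%) were bridged in the combined list and 55 (7.10%) in replicate 2. That of replicate 2 had 732, of which 73 (9.97%) were bridged in the combined list and 23 (3.14%) in replicate 1. Bridged gaps were short, with medians of 150 and 135 bp for those bridged in the combined list, against 985 and 1015 bp for those open there. Gaps of replicate 1 bridged in replicate 2 had a median of 96 bp, against 927 bp for those open there. For gaps of replicate 2 in replicate 1 the medians were 125 and 940 bp. Short gaps of 1 library were thus not always resolved in the other.

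The edges facing a close gap were placed nearly as exactly as the others. For 930 members with a close gap on 1 side, each overlapping 1 region in each replicate that overlapped no other combined region, the facing edge differed between replicates by a median of 31 bp and the far edge by 29 bp. Edges of the other mid-width regions differed by 29 bp. Differences over 200 bp occurred at 48 facing edges (5.16%), at 27 far edges (2.90%) and at 160 of 3852 edges of the other regions (4.15%).

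Scores of closely spaced regions were a little higher than those of the other mid-width regions. The median was 2.16 against 1.96 in the combined list, 2.35 against 2.14 in replicate 1 and 2.14 against 1.98 in replicate 2, a difference of 0.189 ± 0.0319 over the replicate lists (SD, n = 2). Members were also wider, with a median of 2889 bp against 2767 bp, and their median score went from 0.937 at 2000 to 2499 bp to 2.57 at 4000 to 5000 bp. Within classes of width the difference was smaller in the combined list, at 0.164 for 2000 to 2499 bp, 0.0831 for 2500 to 2999 bp, 0.100 for 3000 to 3999 bp and 0.0769 for 4000 to 5000 bp. It had the same direction in each of these classes in both replicates, but in replicate 2 it was 0.274 at 2000 to 2499 bp, above the 0.167 over all widths of that list. In an alternative, only regions scoring above the median of the combined list were kept before gaps were measured. It left 361 closely spaced regions, as regions beside a weaker neighbour lost that neighbour, and the difference was 0.00506. This cut on score also narrows the range of the scores compared.

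Seen from the other side, weak and narrow mid-width regions were less often closely spaced. The closely spaced share was 28.6% among regions of 2000 to 2499 bp, 36.3% at 2500 to 2999 bp, 37.1% at 3000 to 3999 bp and 40.4% at 4000 to 5000 bp. In the replicate lists it rose from 28.7% ± 1.64 to 41.9% ± 0.796 (SD, n = 2) between the first and the last class. By score, the share was 25.7% in the lowest 25% of the mid-width regions (192 of 746), and 35.0%, 39.5% and 40.6% in the following classes of 25% each. The replicate lists gave 25.8% ± 1.46 in the lowest and 41.6% ± 0.0373 in the highest class (SD, n = 2). A score below 1 was found for 14.0% of members and 23.0% of the others in the combined list.

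**Figure D4:**
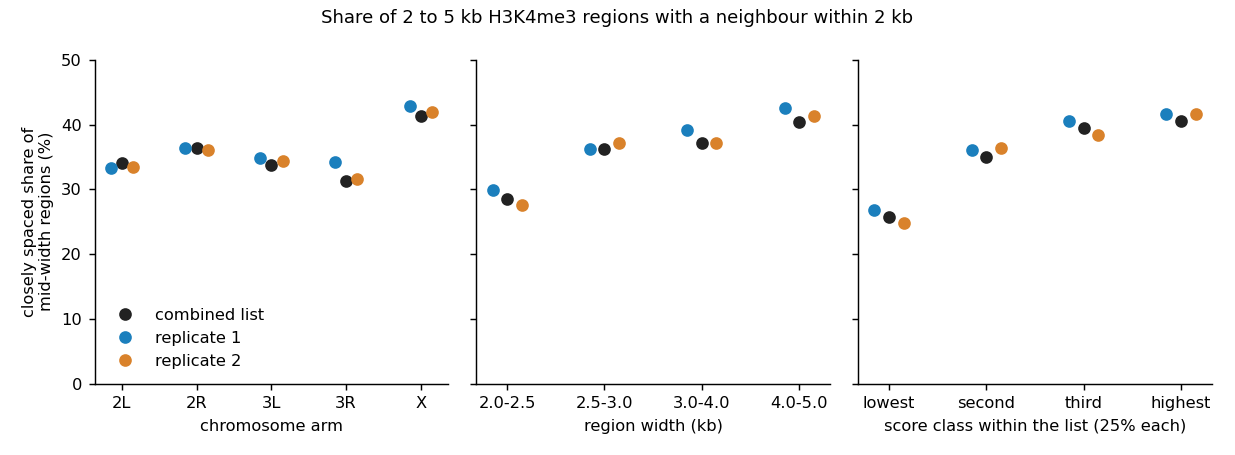
Closely spaced share in percent of mid-width regions by chromosome arm, by region width in kb and by score class within each list (25% of the regions each), with 1 point for each list. X has the highest share in all 3 lists, at 41.3% in the combined list, and the share is lowest in the narrowest class and in the lowest class of scores.

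The highest-scoring members were regions of about 4 kb. The region of 2R from 20485394 to 20489260 had a score of 3.22 in the combined list, 3.37 in replicate 1 and 3.17 in replicate 2, and lay 845 bp from a region of 6521 bp. It was followed by 2R from 8211514 to 8216020 with 3.10 and by 2R from 10125274 to 10129400 with 3.09. The next were X from 9041502 to 9045822 with 3.08 and 3L from 13920304 to 13924398 with 3.08. Each of these was a single region in both replicates, with scores between 2.98 and 3.37 there.

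The lowest-scoring members lay at the lower width limit, with 1 exception. That was the region of 3L from 15967626 to 15971304, 3679 bp wide with a score of 0.256, which was 3762 bp wide in replicate 1 and 1976 bp in replicate 2. The other 4 were between 2003 and 2017 bp wide, with scores from 0.283 to 0.299. These were on 3R from 24983140 to 24985148, on 2R from 20872874 to 20874880, on 3R from 4805776 to 4807778 and on 2R from 10760892 to 10762908. In replicate 2 all 5 were narrower than 2000 bp, so none of them would have met the width rule there.

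The score of a region was nearly unrelated to that of its mid-width partner. Across the 416 gaps between such partners Spearman's rho of their scores was 0.04 in the combined list, and across 482 and 442 gaps it was 0.04 and 0.05 in replicates 1 and 2. Their widths had a rho of 0.01 in the combined list. These values are across pairs of regions that share a library and, in longer runs, a region. Partners differed by a median score of 0.585, and by more than 1 in 128 of 416 cases (30.8%). Which of the partners scored higher was nearly always the same in both libraries. Of 414 pairs in which each partner overlapped 1 region of its own in each replicate, 386 (93.2%) had the higher score on the same side in replicate 1 and replicate 2. In the pairs whose order differed, the partners were close in score, with a median difference of 0.0754 in replicate 1 and 0.0602 in replicate 2. Scores of mid-width regions in general kept their ranks between the libraries. For regions with a counterpart of their own in each replicate, Spearman's rho between replicate scores was 0.98 for members and 0.985 for others. The shared order of partners was not compared with that of regions that are not partners.

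**Figure D5:**
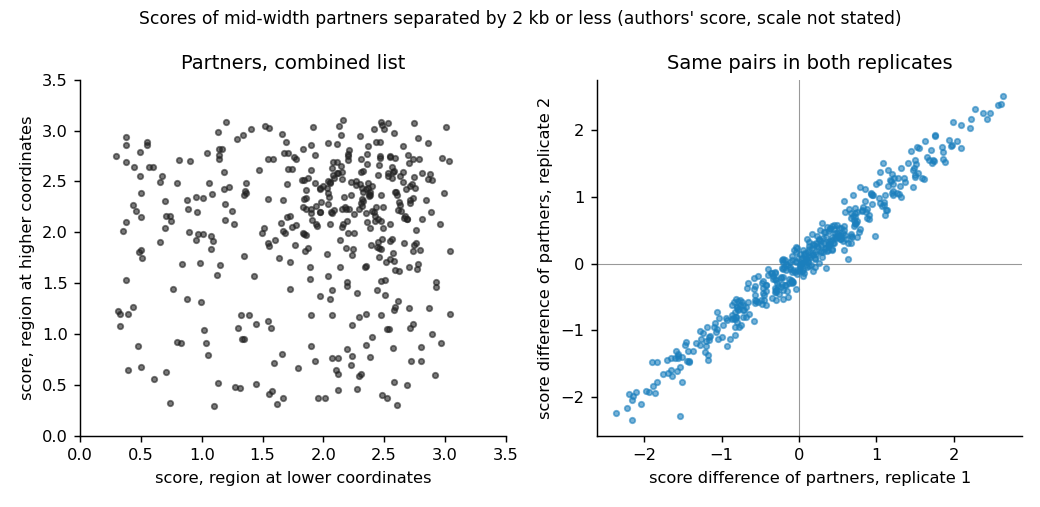
Left, the authors' score of the region at higher coordinates against that of the region at lower coordinates for 414 pairs of mid-width partners in the combined list; right, the score difference of the same pairs (higher minus lower coordinates) in replicate 2 against replicate 1. The left cloud has no visible trend, and on the right 386 of the 414 points lie in the quadrants where both replicates give the same sign.

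Between the libraries, scores of members were shifted like those of the other regions. A member was matched when it overlapped 1 region in each replicate and each of these overlapped no other region of the combined list. Of 1042 matched members, 962 (92.3%) scored higher in replicate 1, by a median of 0.201 over all 1042. Among 1926 other mid-width regions matched in the same way 1734 (90.0%) did, by a median of 0.174. The scale of the score is not stated, so this describes these 2 libraries.

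Arm X had the largest closely spaced share. It was 41.3% on X (219 of 530 mid-width regions), 36.4% on 2R (234 of 642), 34.1% on 2L, 33.8% on 3L and 31.4% on 3R. In the replicate lists it was 42.4% ± 0.643 on X, 36.3% ± 0.218 on 2R, 34.6% ± 0.399 on 3L, 33.4% ± 0.0442 on 2L and 33.0% ± 1.89 on 3R (SD, n = 2 each). X lay above the other arms by more than the spread between the lists, and the spread of 3R overlapped that of 2L and of 3L. The share did not follow the density of regions, which was 34.9 per Mb on X and 42.8 per Mb on 2R, the densest arm. Per Mb, 2R carried 11.1 members, X 9.77, 3L 8.27, 2L 7.87 and 3R 7.63. Among gaps between regions of any width the arms were closer together, with 21.7% at most 2000 bp on X, 20.6% on 2R and 18.4% to 19.0% on the other arms.

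Along the arms the closely spaced share had no steady trend. Each arm was cut into 10 equal steps counted from the centromere. The share was 32.0% in step 1 and 37.6% in step 10, and it ranged from 31.0% in step 5 to 39.6% in step 2. Step 2 was at 40.7% in replicate 1, the highest there, and at 38.3% in replicate 2, where step 10 was slightly higher at 38.5%. Members were present in all but 2 of the 117 full windows of 1 Mb, with a median of 8 per window. The fullest window was on X from 2000001 to 3000000, with 23 members among 39 mid-width regions, and with 26 and 21 in replicates 1 and 2. In replicate 2 the fullest was 2R from 20000001 to 21000000 with 23. In the combined list the window on X was followed by 2R from 3000001 to 4000000 and X from 15000001 to 16000000 with 22 each and by 2R from 20000001 to 21000000 with 21. These windows were also rich in regions of any width, with 49, 65, 51 and 53.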

How the data were processed

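Per the labels, enriched regions were derived from 2 H3K4me3 ChIP libraries of whole larvae; Bowtie 0.12.7 is named in the submitters' processing notes. Per the file headers, positions (first and last base) follow FlyBase release 5. The authors deposited a score for each region without a stated scale. The caller, its threshold, the use of the input and the way of combining replicates are not stated in the labels or file headers used here. No read counts accompany the regions, so no interval based on depth is given.

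Gaps, runs and overlaps were computed in Python 3.11.15 (pandas 2.3.3, numpy 2.4.6, scipy 1.17.1; matplotlib 3.10.9 for figures). A gap is the next start minus the end minus 1. The code was tested on simulated lists with planted runs. Members, limits and measures were chosen with earlier results of these data known. Regions named are the 5 runs with the most regions (ties by span), the members with the smallest gaps, the highest and lowest scores and the widest neighbours, those at the gap limit, and the fullest arm and window; other regions were named after their values were seen. Alternatives were other gap and width limits, high scores only, mid-width neighbours only, each replicate alone and a 50% overlap. For high scores only, the weaker regions were removed before gaps were measured. An alternative without entries named as depletion was chosen after seeing the data.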

Additional observations from a re-analysis of the deposited data

Results flagged for a closer look

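Sequences outside the 5 large arms were not part of the description above. There the same rule found 14 closely spaced regions among 101 mid-width regions of the combined list. Of these 14, 11 were on chromosome 4, 2 on 2RHet and 1 on U, which held 39, 10 and 22 mid-width regions. In the combined list the share off the large arms and that on chromosome 4 were below the 35.2% on the large arms. Replicate 1 had 11 of 100 and replicate 2 had 14 of 100, with 11 of 41 and 12 of 40 on chromosome 4. That these data were left out of the main description is what marked this result.

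The deposited combined list also holds 20 entries whose source field names depletion, and the same reason marked them. All 20 have scores below 0 and a median width of 1661 bp, the widest being 1847 bp. None was a member or lay at a close gap beside one. Replicate 1 had no such entry and replicate 2 had 2.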

How the results depend on the processing

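The number of closely spaced regions, 1050, was 589 with a gap limit of 1000 bp, 1578 with 4000 bp, 629 at a width of 2500 to 4000 bp and 361 above the median score. The closely spaced share, 35.2%, was 19.7% and 52.9% with these gap limits, 33.6% at a width of 1500 to 5000 bp, 36.7% at 2500 to 4000 bp, 24.3% above the median score and 25.8% with mid-width neighbours only; the replicate lists alone gave 35.3% to 36.2%. The share in runs of 3 or more was 16.3% and 49.6% with the gap limits, 20.8% above the median score and 20.1% with mid-width neighbours only. The share found in both lists was 97.1% at 1500 to 5000 bp and 100% at 1000 bp, at 2500 to 4000 bp, above the median score and with mid-width neighbours only. For each replicate alone, 100% of its own closely spaced regions overlapped a region of the other replicate. Gaps open in both replicates made up 99.2% above the median score and 99.5% with mid-width neighbours only. For the replicate lists the share was 89.7% to 95.4%, but there a gap had to be open only in the other replicate. The score difference, 0.201, was 0.150 and 0.338 with the gap limits, 0.379 at 1500 to 5000 bp, 0.0962 at 2500 to 4000 bp, 0.00506 above the median score, 0.152 with mid-width neighbours only and 0.167 to 0.212 in the replicate lists. The score difference, the only one of the 6 values that could change sign, stayed positive under these alternatives. Leaving out the entries named as depletion changed none of the 6 values. By construction the alternatives leave fewer or more regions, or shorter or longer gaps, and beyond this the cause of these shifts was not tested. No paired analysis was possible because no input file, whose numbers could pair with the ChIP libraries, was used here. Unknown depth limits what can be said of weak narrow neighbours: a neighbour absent from a list could be slightly below the unknown threshold.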
